A study of Mus musculus with 24 samples.

Results

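The comparison described here is the response of mouse brain microvascular endothelial cells to an S1P4 agonist given from the basal side, against vehicle. It rests on 8 of the 24 libraries of the series, 4 labelled basal agonist and 4 labelled vehicle, which were chosen by their labels and not by any measured value. The cells were primary cultures from C57B/6J mice without a genetic change, and 12 mice were pooled for each replicate. Both groups had been kept in puromycin for 48 h to remove other cell types, seeded on transwell inserts and left for 48 h to form a barrier. The agonist group then received 500 nM CYM50260 in the lower, basolateral compartment for 24 h. The vehicle group received the vehicle control in the same medium, and the labels do not say on which side. For each library 3 inserts were lysed together, and 100 ng of RNA entered a stranded mRNA protocol. The other wild-type groups, 4 libraries each, were apical agonist at 500 nM, with which the basal agonist is compared at the end, and S1P at 50 nM on either side. They also entered the fit to estimate the spread. Replicate numbers were taken from the labels. No source ties a library to its own pool of mice, and the p-values therefore speak only of the spread from library to library, part of which may be technical.

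Sphingosine-1-phosphate (S1P) is a lipid mediator carried in blood plasma that acts through a family of G protein-coupled receptors. In endothelium, S1P1 couples to Gi and Rac and holds junctions together, whereas S1P2 and S1P3 can also engage G12/13 or Gq and actomyosin contraction. S1P4 is best known from blood cells, where it couples to Gi and G12/13, and CYM50260 was developed as an agonist selective for it. Brain endothelium is polarised, with tight junctions that separate a blood-facing apical membrane from a tissue-facing basal membrane. The design text gives basal and apical agonist as treatments that tightened the barrier, and the comparison asks which transcripts accompany the basal one.

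The values are normalized read counts as the authors deposited them, and every difference below is basal agonist minus vehicle on the log2(normalized count + 1) scale, which understates the difference of low genes. Of 18091 genes in the wild-type table, 12249 had a mean of at least 10 over its 20 libraries and were tested with limma, with Benjamini-Hochberg adjustment. The 8 libraries summed to 4500734 to 4720877 normalized counts. Before normalization they held an estimated 4.04 M to 5.54 M reads, with fewer reads in the agonist library than in the same-numbered vehicle library in all 4 pairs (5.11, 5.14, 4.20 and 4.04 M against 5.54, 5.25, 4.73 and 4.57 M). All 26 endothelial markers were in the table and tested, with Vwf, which encodes von Willebrand factor, as the one with the highest counts. The lists for pericytes, smooth muscle and fibroblasts were also detected, whereas Snap25, Syt1, Mog, Olig2, Sox10, P2ry12, Itgam, Slc1a2, Lum and Atp13a5 were not in the table. In bulk RNA, fewer cells of a type and less RNA per cell cannot be told apart.

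No gene passed the threshold for basal agonist against vehicle. With all 20 libraries as group means, 38 genes (0.31%) had an unadjusted p under 0.05 in limma, 13 of them higher (0.106%) and 25 lower (0.204%), and the smallest adjusted p was 0.999814. Same-numbered libraries deviated together, with r of 0.72 to 0.77 over all genes tested, so a fit of the 8 libraries with the replicate number as a block was also read. In it the median standard error was 0.0592 and 1178 genes (9.62%) had an unadjusted p under 0.05 in limma, against 0.128 and 38 without the block over 20 libraries. The 2 fits differ both in the block and in the libraries used. With the block over all 20 libraries the median standard error was 0.0982 and 121 genes (0.988%) had such a p, and with 8 libraries and no block the values were 0.114 and 43 genes (0.351%). Below, the blocked fit is the one of 8 libraries. Still no gene was called in that blocked fit, where the smallest adjusted p was 0.17. For 87.3% of the genes the 95% interval of the blocked fit lay within 0.5 of 0, and for 98.4% within 1. In the fit of 20 libraries without the block these shares were 71.8% and 92.5%. Over all genes the differences ran from -1.16 to 1.19, and 4 genes exceeded 1 in either direction. The size of the difference was thus bounded for most genes, and differences of about 0.1 were not called in any fit of all 4 pairs, although for some genes their blocked interval, not adjusted for the number of genes, left out 0.

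The differences of one pair carried little information about those of another. Across the 12249 genes, the correlation between the 6 combinations of pairs ran from -0.01 to 0.08, and across 9040 genes with a mean of at least 100 from -0.04 to 0.16. Genes are not independent replicates, and these values describe the libraries only. In all 4 pairs the agonist library was higher for 1153 genes (9.41%) and lower for 799 genes (6.52%). The 2 groups did not overlap for 72 genes (0.588%), 34 on the higher side (0.278%) and 38 on the lower side (0.31%).

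The receptors come first, since the compound acts through one of them. S1pr4, on chromosome 10 at 81497747 to 81500132 of mm10, minus strand, was counted at 128, 130, 189 and 153 in vehicle replicates 1 to 4. In basal agonist replicates 1 to 4 it was counted at 132, 122, 172 and 139. The groups overlapped, replicate 3 was the highest library in both, and the difference was -0.08 ± 0.16 (SE, n = 4 against 4). The transcript of the targeted receptor was therefore present in every library of both groups. S1pr1, the main endothelial S1P receptor, was counted at 1212, 1282, 1602 and 1675 in vehicle and 1256, 1302, 1695 and 1732 with agonist. Its agonist library was the higher one in each pair, by a mean of 0.05 ± 0.03 (SE, n = 4 pairs, blocked fit), and this direction turned to -0.02 once the trend with read density described below was removed. S1pr2 was counted at 75, 63, 101 and 60 in vehicle and 66, 56, 91 and 65 with agonist, overlapping throughout. S1pr3 was counted at 79, 49, 30 and 9 in vehicle and 33, 48, 30 and 1 with agonist, so that the mean of -0.90 ± 0.88 came from replicates 1 and 4, while replicates 2 and 3 were level. S1pr3 was low in replicate 4 of both groups, the replicate in which the pericyte markers named below were also lowest. Leaving out basal agonist replicate 4 in the fit without the block, with the low vehicle library of that number kept in, turned the S1pr3 value to 0.16. S1pr5 was not tested. Per exonic kilobase, mean vehicle levels in normalized counts were 474 for S1pr1, 62.9 for S1pr4, 9.38 for S1pr2 and 9.35 for S1pr3, and the last 2 lay within the spread of their libraries. The median of this measure over all genes tested was 54.6. Of 16 tested genes that make, break or carry S1P, 7 had a higher and 9 a lower mean, with a median of -0.02. Within this list Spns2, the S1P exporter of endothelium, was counted at 870, 863, 831 and 853 in vehicle and 930, 830, 863 and 956 with agonist (0.06 ± 0.12).

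**Figure D1:**
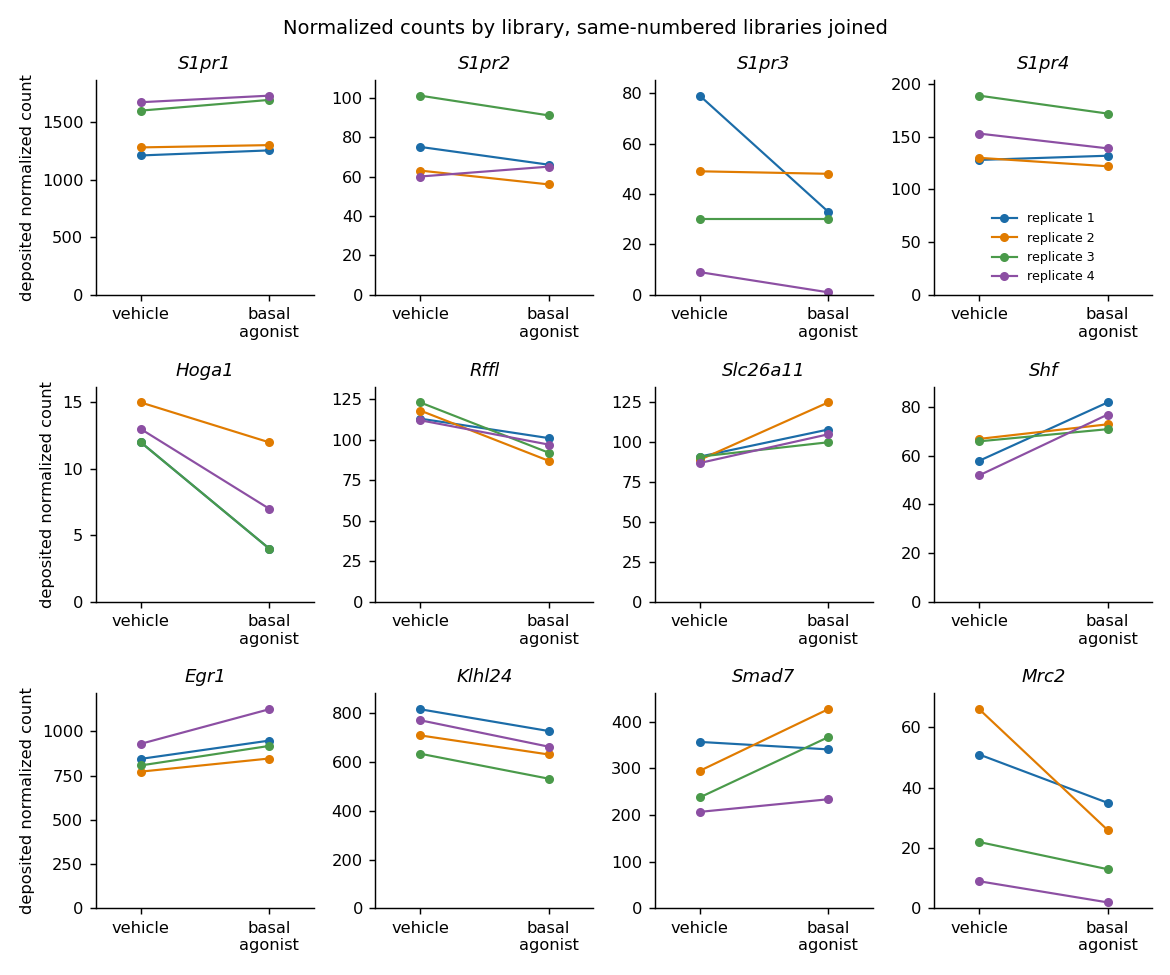
Deposited normalized counts (vertical axis, from 0) of 12 genes in vehicle and basal agonist libraries, with same-numbered libraries joined and colours for replicates 1 to 4. S1pr4 is close to level in all 4 pairs, S1pr3 differs mainly in replicate 1, Hoga1 and Rffl are lower and Slc26a11 and Shf higher in each pair, and Smad7 is not higher in replicate 1.

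The signalling proteins downstream of these receptors differed little. Of 27 tested genes for G proteins, small GTPases and their regulators, 23 had a higher mean with agonist, against 52.5% of all genes, and 5 were higher in all 4 pairs. The median over the list was 0.03, and 0.01 after removal of the density trend. Gnai2, which encodes the Gi subunit that S1P1 and S1P4 use, was counted at 1418, 1477, 1656 and 1718 in vehicle and 1554, 1512, 1819 and 1872 with agonist (0.11 ± 0.09). Each agonist library was above its own vehicle library, and the groups overlapped. Rgs2, an inhibitor of Gq signalling, stood at 36, 43, 21 and 31 in vehicle and 46, 42, 32 and 50 with agonist (0.39 ± 0.34). Gna13 and Rhob, a G protein subunit and a small GTPase of the contraction pathway, had differences of 0.02 ± 0.08 and 0.05 ± 0.14.

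The transcripts of the barrier itself were close to level. Claudin-5 (Cldn5), the main sealing claudin of brain capillaries, was counted at 799, 823, 867 and 984 in vehicle and 802, 867, 972 and 1028 with agonist. Its difference was 0.08, with a 95% interval of -0.10 to 0.25 over all 20 libraries and of 0.00497 to 0.149 in the blocked fit, and the groups overlapped. Occludin (Ocln) was counted at 1070, 1027, 966 and 1054 in vehicle and 1074, 989, 1029 and 1167 with agonist, with a blocked interval of -0.03 to 0.12. The scaffold ZO-1 (Tjp1) had a blocked interval of -0.01 to 0.10. Of the 18 tested tight junction genes, 10 had a higher and 8 a lower mean, 3 were higher and 0 lower in all 4 pairs, and the median was 0.01. Esam, an adhesion molecule at endothelial tight junctions, had the smallest p of that list, at 1132, 1169, 1182 and 1246 in vehicle and 1211, 1222, 1320 and 1339 with agonist (0.11 ± 0.06). Its groups overlapped in part, with agonist replicates 3 and 4 above every vehicle library. Pard6a, a polarity protein, gave the lowest value of the list, at 51, 50, 57 and 60 in vehicle and 66, 41, 46 and 39 with agonist (-0.21 ± 0.16).

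Adherens junction and vesicle genes had small positive values that were shared by many densely read genes. VE-cadherin (Cdh5), the adhesion molecule of endothelial adherens junctions, was counted at 2560, 2622, 2766 and 2928 in vehicle and 2708, 2707, 3003 and 3254 with agonist (0.10 ± 0.07). Pecam1, at endothelial cell borders, was counted at 2358, 2433, 2516 and 2721 in vehicle and 2472, 2523, 2789 and 3035 with agonist (0.11 ± 0.07). In both genes the agonist library was higher in each of the 4 pairs and the groups overlapped, and with the density trend removed the differences were 0.01 and 0.04. Of 18 adherens junction genes 14 had a higher mean and 8 were higher in all 4 pairs. Of 18 genes for caveolae, clathrin coats and receptor-mediated uptake 15 had a higher mean and 9 were higher in all 4 pairs. Their medians were 0.05 and 0.06, and 0.01 and 0.00 with the density trend removed. Cav1, the coat protein of caveolae, had a difference of 0.10 ± 0.10. Mfsd2a, the lipid transporter that restrains transcytosis in brain endothelium, was counted at 36, 30, 52 and 53 in vehicle and 33, 39, 32 and 36 with agonist (-0.25 ± 0.27), with replicate 2 in the opposite direction.

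Transporters and pumps gave small values as well. The glucose carrier Slc2a1 was counted at 1510, 1534, 1670 and 1798 in vehicle and 1654, 1588, 1818 and 1901 with agonist (0.10 ± 0.08). The thiamine carrier Slc19a3 was lower in each pair, at 83, 76, 79 and 112 against 75, 65, 71 and 99 (-0.17 ± 0.16). The efflux pumps Abcb1a and Abcg2 had differences of 0.06 ± 0.08 and 0.07 ± 0.08. Of 22 carriers and pumps 18 had a higher mean, with a median of 0.04, and 0.03 with the density trend removed. For the Wnt barrier programme, which induces and maintains the blood-brain barrier state, 10 of 18 had a higher mean and the median was 0.01.

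**Figure D2:**
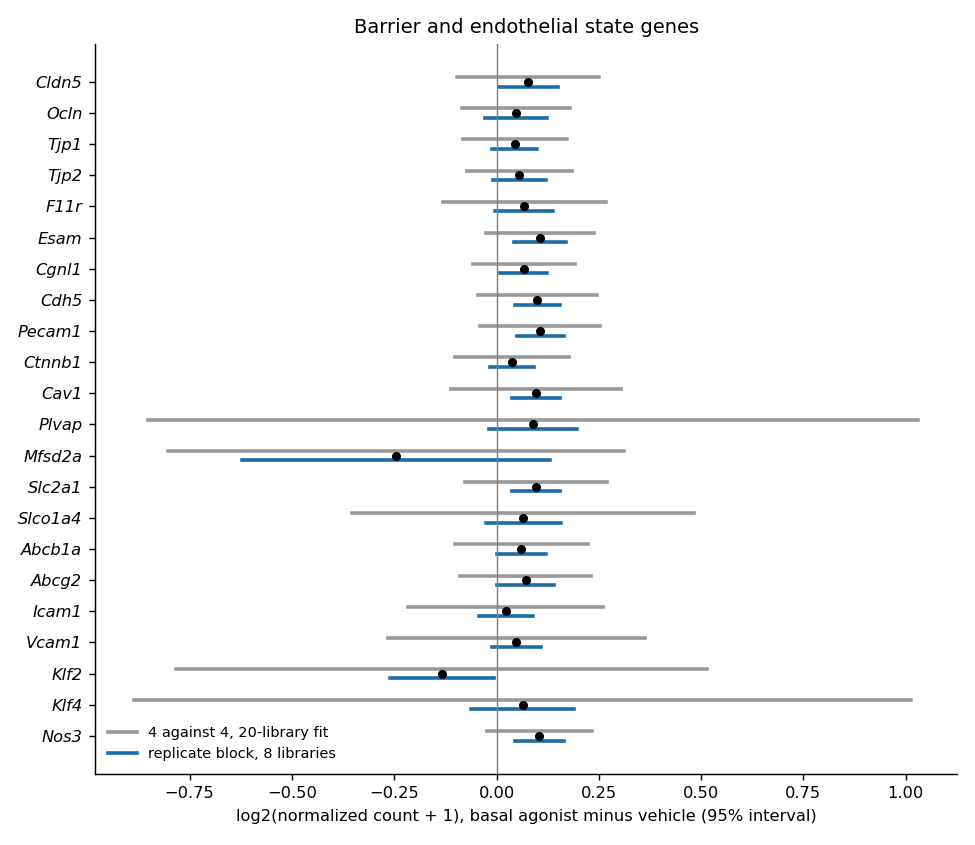
Difference between basal agonist and vehicle (points, log2 of normalized count + 1) of 22 barrier and endothelial state genes, with 95% intervals from the 20-library fit (grey) and from the blocked fit of 8 libraries (blue). Every grey interval includes 0, and for Plvap, Klf2 and Klf4, which differ strongly between replicates, the blocked interval is much the narrower.

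Leukocyte adhesion molecules were near level, and flow-responsive genes were divided. Icam1 and Vcam1, which bind leukocyte integrins, had differences of 0.02 ± 0.11 and 0.05 ± 0.15. Of 25 adhesion and NF-kB target genes 16 had a higher mean, with a median of 0.03. Of 20 flow-responsive and vasoactive genes 13 had a higher mean, 5 were higher and 2 lower in all 4 pairs, and 6 had an unadjusted p under 0.05 on the higher side in the blocked fit, against 5.42% of all genes. Their median was 0.06, and 0.01 with the density trend removed. Klf2, a transcription factor induced by laminar flow, was lower in each pair, at 219, 222, 240 and 406 in vehicle and 176, 220, 233 and 362 with agonist. Its mean was -0.13 ± 0.06 in the blocked fit, and most of it came from replicates 1 and 4. Nos3, the endothelial nitric oxide synthase, was counted at 1777, 1770, 1746 and 1919 in vehicle and 1842, 1856, 1940 and 2126 with agonist (0.10 ± 0.06), higher in each pair with overlapping groups. Piezo1, a mechanically gated channel, was counted at 3012, 3014, 2897 and 3094 in vehicle and 3078, 3197, 3280 and 3252 with agonist (0.09 ± 0.05).

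The genes of smallest p in each direction had low or middle counts and belonged to none of the gene lists. On the lower side stood Hoga1, a mitochondrial enzyme of hydroxyproline breakdown on chromosome 19 at 42045610 to 42070953. It was counted at 12, 15, 12 and 13 in vehicle and 4, 12, 4 and 7 with agonist. At these low counts, agonist replicate 2 overlapped the vehicle group. Rffl, a RING-type ubiquitin ligase on chromosome 11 at 82802449 to 82871210, was counted at 113, 118, 123 and 112 in vehicle and 101, 87, 92 and 97 with agonist. The Rffl groups did not overlap, and the difference was -0.30 ± 0.10 (SE, n = 4 against 4), with a limma adjusted p of 0.999814. Abtb1 (-0.32 ± 0.11), Rabl2 (-0.31 ± 0.11) and Gm12216 (-0.75 ± 0.29) were also on the lower side.

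On the higher side, Slc26a11, an anion exchanger of the sulfate transporter family on chromosome 11 at 119355557 to 119381079, was counted at 91, 89, 91 and 87 in vehicle. With agonist it was counted at 108, 125, 100 and 105, above every vehicle library (0.28 ± 0.12). Ehhadh, a peroxisomal enzyme of fatty acid oxidation, was counted at 56, 63, 51 and 59 in vehicle and 72, 73, 71 and 72 with agonist (0.33 ± 0.13), again without overlap. Shf, an SH2 domain adapter, stood at 58, 67, 66 and 52 against 82, 73, 71 and 77 (0.32 ± 0.13). Gm45221, an unclassified transcribed locus on chromosome 7 at 90185927 to 90188198, had the highest value of all genes tested, 1.19 ± 0.42, from 16, 17, 11 and 10 counts in vehicle and 27, 36, 35 and 28 with agonist. The processed pseudogene Gm12183 (0.53 ± 0.19), whose reads can be shared with its parent gene, and Jph1 (0.76 ± 0.31) completed the higher side.

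In the blocked fit, the genes of smallest p were named only where all 4 pairs had one sign. Gm45221 was again among those on the higher side, and Mrc2, given below, also had low counts. Those described next had higher counts and a small difference. Egr1, an immediate-early transcription factor, was counted at 844, 772, 807 and 929 in vehicle and 947, 846, 917 and 1124 with agonist. The difference was 0.19 ± 0.03 (SE, n = 4 pairs), with a limma adjusted p of 0.17, and the groups overlapped. Flnc, the filamin C actin crosslinker, was counted at 732, 764, 530 and 692 in vehicle and 779, 893, 696 and 813 with agonist (0.23 ± 0.04). Klhl24, a substrate adapter of a cullin ubiquitin ligase that acts on intermediate filament proteins, was lower in each pair, at 815, 708, 633 and 770 against 726, 630, 531 and 662 (-0.20 ± 0.03). Zbtb43, a zinc finger protein, was counted at 265, 276, 257 and 286 in vehicle and 235, 217, 194 and 250 with agonist (-0.28 ± 0.06), without overlap.

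Matrix, cytoskeletal and endothelial marker genes had mostly higher means, and many of them were among the genes read most densely. Fibronectin (Fn1) was counted at 5967, 6261, 6674 and 6957 in vehicle and 6446, 6674, 7591 and 7510 with agonist. Perlecan (Hspg2), a basement membrane proteoglycan, was counted at 6171, 6058, 6933 and 6805 in vehicle and 6497, 6673, 7767 and 7340 with agonist. Both were higher in each pair, by 0.12 ± 0.02 in the blocked fit, and their groups overlapped. With the density trend described below removed, the differences were 0.05 for both, and with cyclic loess scaling 0.04 for Fn1 and 0.03 for Hspg2. Non-muscle myosin (Myh9) was higher in each pair by 0.12 ± 0.03, vimentin (Vim) by 0.13 ± 0.03, collagen IV (Col4a1) by 0.11 ± 0.02 and Sparc, a collagen-binding matrix protein, by 0.13 ± 0.03. With the trend removed these were 0.07, 0.07, 0.03 and 0.06. Of 23 basement membrane and integrin genes 19 had a higher mean, 11 were higher in all 4 pairs, and 12 had an unadjusted p under 0.05 on the higher side in the blocked fit, against 5.42% of all genes. Of 26 cytoskeletal targets of MRTF and SRF, the factors that respond to actin assembly, 21 had a higher mean, 10 were higher in all 4 pairs and 10 had such a p. Acta2, the classical target of these factors, was lower in each pair (-0.08 ± 0.04, blocked fit), and Srf itself was level (0.00 ± 0.11). Of the 26 endothelial markers 24 had a higher mean and 19 were higher in all 4 pairs. VEGF and angiopoietin genes (15 of 17 with a higher mean), BMP and TGF-beta genes (15 of 21) and Notch genes (10 of 16) had medians of 0.07, 0.03 and 0.04.

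Read density, the normalized counts per exonic kilobase, moved with these values. In the densest 10% of all genes, 1225 genes with over 179 counts per kilobase, the median difference was 0.04, 86.9% had a higher mean and 35.6% were higher in all 4 pairs. In the sparsest 10% the median was -0.06, 39% had a higher mean and 3.67% were higher in all 4 pairs. Of the 26 endothelial markers 23 lay in the densest 10%. All 4 treatments showed a trend of this direction against the same vehicle libraries, which they share. The medians of the densest and the sparsest 10% were 0.09 and -0.13 with apical agonist, 0.10 and -0.17 with basal S1P, and 0.05 and -0.04 with apical S1P. When a smooth trend with read density was removed from each library, the medians went from 0.06 to 0.00 for basement membrane and integrins, from 0.05 to 0.00 for the MRTF and SRF targets, from 0.07 to 0.01 for the endothelial markers and from 0.07 to 0.01 for VEGF and angiopoietin genes. Estimated read number was lower in the agonist library of each pair, as given above, and its part in this trend was not tested.

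**Figure D3:**
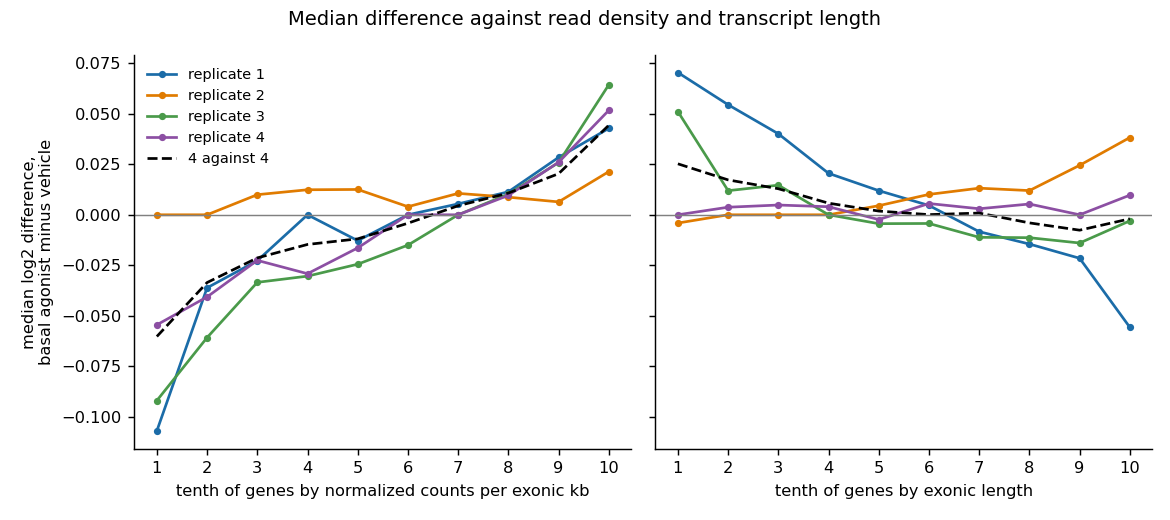
Median log2 difference (basal agonist minus vehicle) of each 10% of the tested genes, ordered by normalized counts per exonic kilobase (left) or by exonic length (right), for each same-numbered pair (colours) and for the 4 against 4 comparison (dashed). With read density the medians go from -0.06 to 0.04. With length, replicate 1 goes from 0.07 to -0.06 while replicate 2 goes from 0.00 to 0.04.

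Ribosomal protein genes kept a positive value with that trend removed. All 43 tested genes of the cytosolic ribosome had a higher mean with agonist, between 0.03 and 0.15. In all 4 pairs 25 of them were higher, against 9.41% of all genes, and 17 had an unadjusted p under 0.05 in the blocked fit, against 5.42% of all genes on the higher side. The median was 0.10, with pair medians of 0.11, 0.03, 0.15 and 0.12 for replicates 1 to 4, so that replicate 2 was the lowest. With the density trend removed the median was 0.08 and all 43 remained positive, against 6190 of the 12249 genes (50.5%). Rplp0, of the stalk of the large subunit, was counted at 512, 535, 619 and 623 in vehicle and 562, 543, 694 and 676 with agonist (0.11 ± 0.04, blocked fit). Rps18, of the small subunit, was counted at 152, 156, 169 and 158 in vehicle and 162, 166, 191 and 185 with agonist (0.15 ± 0.07, blocked fit). For both genes the agonist library was higher in each pair and the groups overlapped. None was called, and the limma adjusted p of Rps18 was 0.494 in the blocked fit. These genes have many processed pseudogenes that can take part of their reads, so single values are uncertain. Against the same vehicle libraries the list median was 0.15 with apical agonist. With apical and basal S1P, Rps18 had 0.13 and 0.13, Rpl3 0.07 and 0.03, and Rpl5 0.04 and 0.12. A higher value was thus not confined to basal agonist, and the part of the shared vehicle was not tested. The 1225 shortest genes by exonic length had pair medians of 0.07, -0.004, 0.05 and 0, and 60.5% had a higher mean. The part of length in the ribosomal values was not tested. Nuclear genes of oxidative phosphorylation had a median of 0.04, with 29 of 34 higher, and 0.02 with the density trend removed.

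Ribosomal protein messengers are known for a pyrimidine tract at their start, through which their translation is regulated together, and the start region is shown for 4 of them to make that shared feature visible. In RefSeq promoters of build GRCm38.p6, 33 of the 43 genes matched by symbol. A run of at least 6 bases that are each C or T, on the transcribed strand and within 3 bases of the annotated start, was found in 14 of the 33 (42.4%). The share among the 9505 tested genes with a promoter was 19.9%. The windows hold 15 bases before and 15 from the annotated start, and capitals mark the run. They show the 3 genes with a run and the smallest blocked p, and then Rplp0, which has the smallest blocked p among the genes without one. A match is a description of the sequence only.
Rpl7a (chr2:26910792-26910821, plus strand): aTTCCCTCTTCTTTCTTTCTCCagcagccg
Rpl14 (chr9:120571502-120571531, plus strand): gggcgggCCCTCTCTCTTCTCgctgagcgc
Rplp2 (chr7:141447636-141447665, plus strand): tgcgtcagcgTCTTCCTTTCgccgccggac
Rplp0 (chr5:115559452-115559481, plus strand): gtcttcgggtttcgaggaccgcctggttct
Rpl7a, Rpl14 and Rplp2 had differences of 0.11 ± 0.04, 0.12 ± 0.05 and 0.14 ± 0.06 in the blocked fit, close to that of Rplp0, which holds no such run in this window.

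Cell cycle genes had a median of 0.06, and 26 of 30 had a higher mean, but the pairs differed, with medians of 0.15, 0.01, 0.02 and 0.11 for replicates 1 to 4. Mki67, which encodes the proliferation antigen Ki-67, was counted at 1930, 1964, 618 and 752 in vehicle and 2006, 2114, 800 and 999 with agonist. It was higher with agonist in all 4 pairs, by 0.06, 0.11, 0.37 and 0.41 for replicates 1 to 4 (0.24 ± 0.05, blocked fit), while it differed far more between replicates than between groups. The limma adjusted p of Mki67 was 0.251 in the blocked fit and 0.00207 when the pair of replicate 1 was left out, a fit described below. Top2a, another gene of dividing cells, was counted at 1415, 1450, 808 and 1085 in vehicle and 1594, 1490, 758 and 1088 with agonist (0.03 ± 0.04, blocked fit). The helicase gene Mcm2 stood at 732, 776, 665 and 632 in vehicle and 850, 766, 709 and 747 with agonist. Replicates 3 and 4 thus held less Mki67 than replicates 1 and 2 in both groups.

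**Figure D4:**
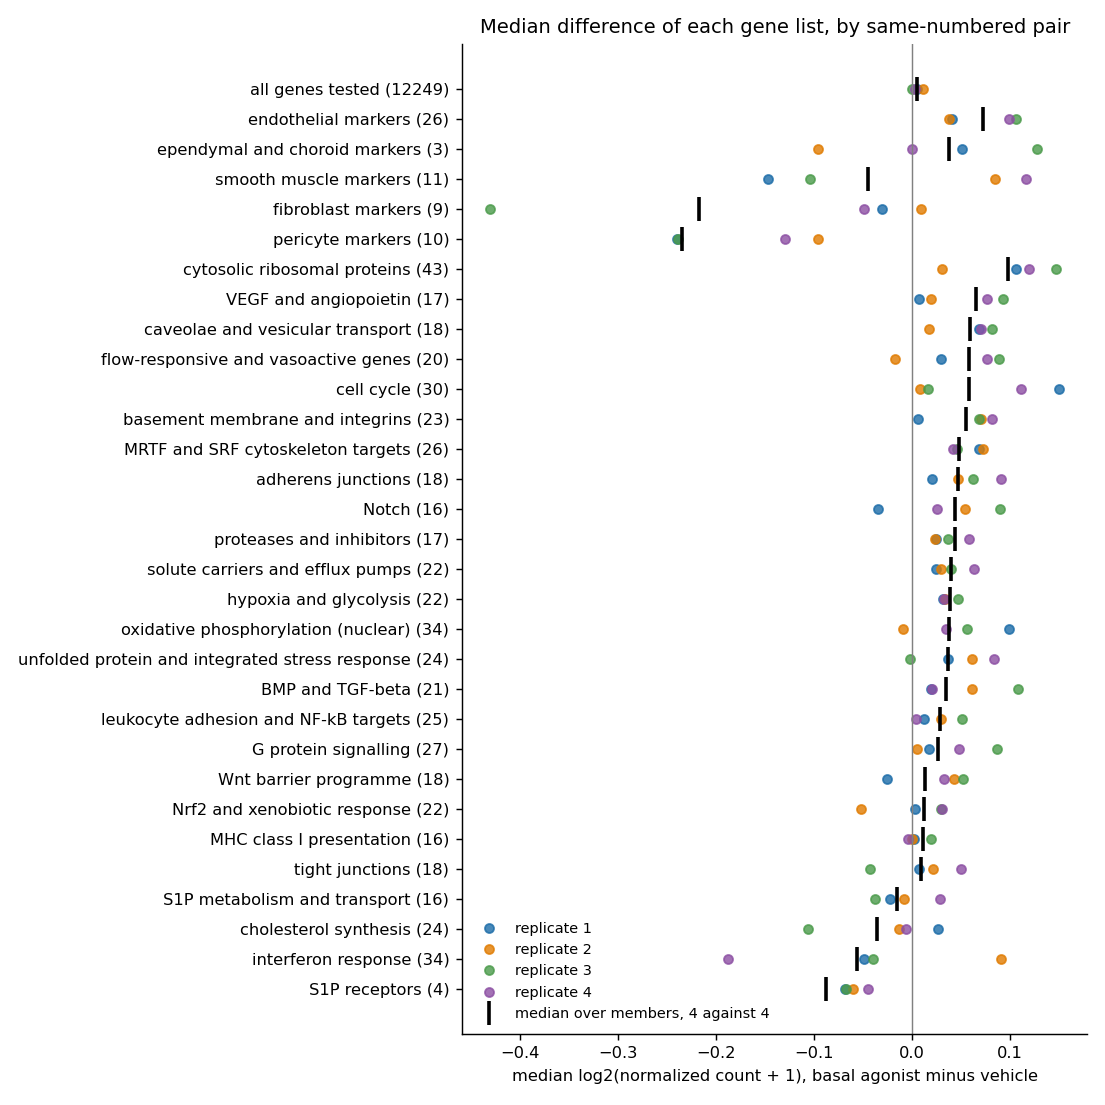
Median difference (log2 of normalized count + 1, basal agonist minus vehicle) of each gene list with at least 3 tested members, with the number tested in parentheses, for each same-numbered pair (coloured points) and for the 4 against 4 comparison (black bar). Ribosomal proteins and endothelial markers lie above 0 in all 4 pairs, the interferon list lies on both sides, and the pericyte list lies below 0 in all 4.

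Interferon and cholesterol genes had mostly lower means, but 1 library could turn the sign of either median. Of 34 tested interferon response genes 23 had a lower mean, 2 of them in all 4 pairs, and the median was -0.06. The pair medians were -0.05, 0.09, -0.04 and -0.19 for replicates 1 to 4, so replicate 2 went the other way. Ifit1, an antiviral RNA-binding protein, was counted at 142, 127, 122 and 219 in vehicle and 136, 132, 86 and 150 with agonist (-0.26 ± 0.39). Rsad2, which encodes viperin, was counted at 194, 183, 143 and 305 in vehicle and 202, 190, 109 and 209 with agonist. In both genes vehicle replicate 4 was the highest library, and replicates 1 and 2 were close to level. Of 24 cholesterol synthesis genes 19 had a lower mean, 4 of them in all 4 pairs, with a median of -0.04. Hmgcs1, an early enzyme of the pathway, was counted at 797, 788, 792 and 923 in vehicle and 761, 777, 684 and 888 with agonist (-0.09 ± 0.04, blocked fit). The list's pair medians were 0.03, -0.01, -0.11 and -0.01, and removal of the density trend left both list medians where they were, at -0.06 for interferon and -0.04 for cholesterol. In the fit without the block, the interferon median was 0.03 without basal agonist replicate 3. The cholesterol median was 0.02 without vehicle replicate 4 and -0.10 without basal agonist replicate 4.

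Pericyte and fibroblast markers had the most negative list medians, and their level differed several-fold between replicates of one group. The 8 of 10 tested pericyte markers with a lower mean included Pdgfrb, the PDGF receptor of pericytes, at 582, 464, 317 and 68 in vehicle and 412, 420, 266 and 63 with agonist (-0.25 ± 0.06, blocked fit). Rgs5, a signalling regulator of pericytes, was counted at 358, 329, 90 and 29 in vehicle and 295, 303, 51 and 26 with agonist (-0.34 ± 0.11, blocked fit). The medians were -0.23 for pericyte and -0.22 for fibroblast markers. By pair they were -0.24, -0.10, -0.24 and -0.13 for pericyte markers and -0.03, 0.01, -0.43 and -0.05 for fibroblast markers, so that replicate 3 stood apart in the second list. Smooth muscle markers, also mesenchymal, had 5 of 11 higher and a median of -0.04, less negative than that of the interferon genes or the S1P receptors. In the fit without the block the pericyte and fibroblast medians were 0.37 and 0.18 without basal agonist replicate 4, the opposite sign. Without vehicle replicate 4 these 2 medians were -0.94 and -0.75. Replicate 4 was low for these lists in both groups, so leaving out 1 of its libraries without the block sets unlike replicates against each other. These 2 changes therefore do not bear on the direction within pairs. Summed over its list, pericyte signal was 4617, 3990, 2887 and 2067 in vehicle and 3932, 4016, 2725 and 2144 with agonist, lower in replicates 1 and 3 and higher in replicates 2 and 4. Its member with the highest counts, Mcam, is also made by endothelium. Without Mcam the sum was 3134, 2475, 1420 and 347 in vehicle and 2431, 2421, 1205 and 304 with agonist, lower in all 4 pairs. Fibroblast signal was 1760, 1809, 708 and 601 in vehicle and 1716, 1660, 553 and 579 with agonist, lower in each pair. Among single genes of the blocked fit, Mrc2, a collagen uptake receptor, was counted at 51, 66, 22 and 9 in vehicle and 35, 26, 13 and 2 with agonist (-1.07 ± 0.23). Prrx1, a mesenchymal transcription factor, was counted at 162, 133, 82 and 16 in vehicle and 111, 116, 53 and 7 with agonist (-0.61 ± 0.14). Sdc2, a heparan sulfate proteoglycan, was counted at 179, 147, 148 and 60 in vehicle and 133, 130, 101 and 37 with agonist (-0.46 ± 0.09). All 3 were lower in each pair and, in both groups, lowest in replicate 4. Cyp1b1, a cytochrome P450 enzyme, was counted at 150, 14, 25 and 71 in vehicle and 28, 5, 15 and 76 with agonist (-1.08 ± 0.28, blocked fit), with replicate 4 close to level. The part of other cells in these values was not tested.

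Calls appeared in the blocked fit when the pair of replicate 1 was left out. With the 3 remaining pairs 50 genes were called (0.408%), 47 higher and 3 lower, with a smallest limma adjusted p of 0.000417. Only 16 of the 50 had the same direction in replicate 1. Nav2, a neuron navigator protein that binds microtubules, had differences of 0.27, 0.54 and 0.29 in replicates 2 to 4 and -0.12 in replicate 1. Kmt2d, a histone H3 methyltransferase, had 0.29, 0.49 and 0.21 against -0.11, and Smad7, the feedback inhibitor of TGF-beta and BMP receptors, had 0.53, 0.62 and 0.18 against -0.07. Firre, a long noncoding RNA of the X chromosome, had 0.52, 0.34 and 0.64 against -0.16. Replicate 1 also stood apart in Xist, at 1 in vehicle and 0 with agonist, against 173 to 2507 in the other replicates. The part of this in the calls was not tested. Egr1, Flnc, Fn1, Hspg2, Myh9, Vim, Col4a1 and Mki67 were among the 47 and were higher in replicate 1 too. With the density trend removed as well, Flnc and Mki67 stayed called, whereas Egr1, Fn1, Hspg2, Myh9, Vim and Col4a1 did not. Gm45221 was called with and without the density trend and was also higher in replicate 1, by 0.72. On the lower side, Klhl24 and Zbtb43 were lower in replicate 1 as well, whereas Cmpk2, an interferon-induced kinase, had -0.27, -0.33 and -0.52 in replicates 2 to 4 and 0.17 in replicate 1.

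Transcript length moved with this set. The 50 genes had a median exonic length of 11432 bases against 4525 over all genes tested, and 32 of them lay in the longest 10%. In those longest 10% the median difference over all genes was -0.06 in replicate 1, 0.04 in replicate 2, 0.00 in replicate 3 and 0.01 in replicate 4. In the shortest 10% the medians were 0.07, 0.00, 0.05 and 0.00. Replicate 1 thus fell the most along the length of the transcripts. Replicate 3 fell as well, to -0.01 in the 10% next to the longest. The part of length in the calls was not tested. With the density trend removed, 31 genes were called without replicate 1 (0.253%), all of them among the 50. Leaving out replicate 2, 3 or 4 gave no call, with smallest limma adjusted p-values of 0.388, 0.413 and 0.705, and 1127, 710 and 841 genes at an unadjusted p under 0.05.

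**Figure D5:**
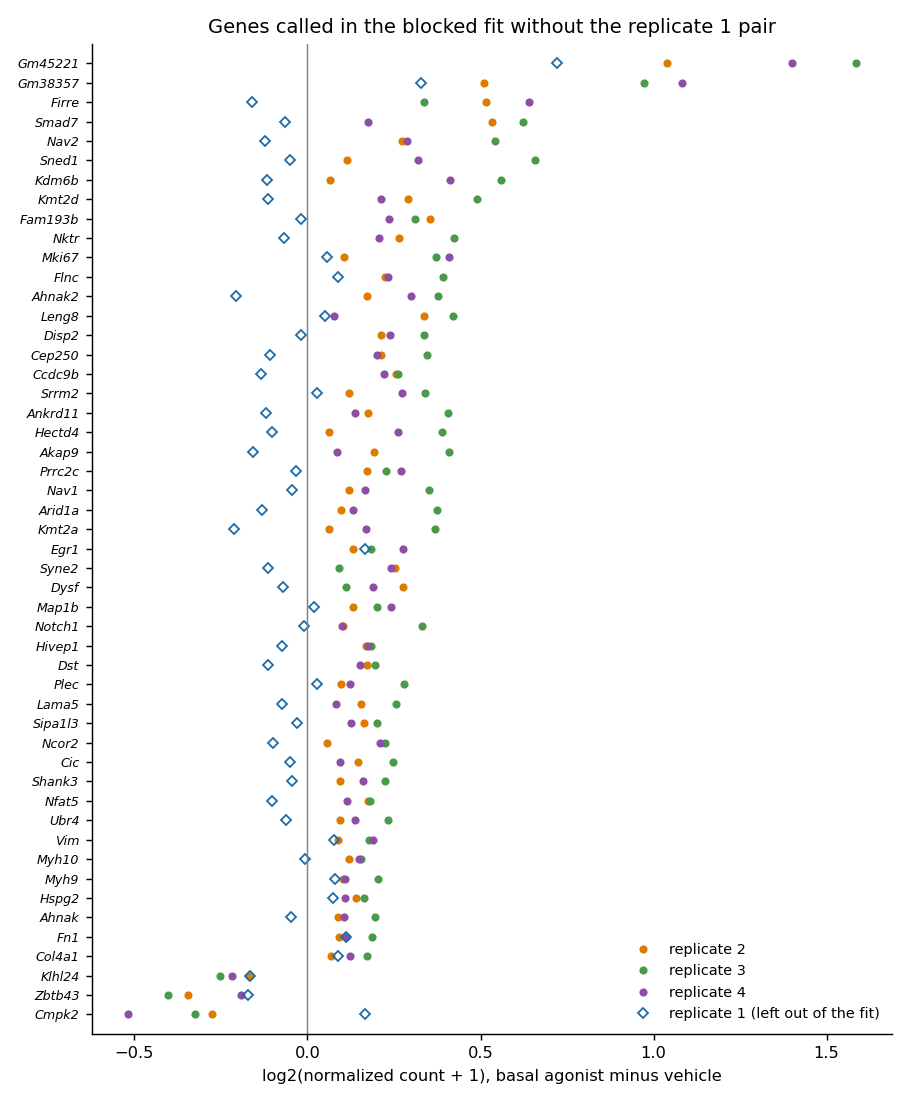
Difference between basal agonist and vehicle (horizontal axis, log2 of normalized count + 1) in each same-numbered pair for the 50 genes called in the blocked fit of replicates 2 to 4 (filled points). Open diamonds show replicate 1, which was left out of that fit and had the same direction for 16 of the 50.

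The side of application was compared directly, since the same compound was given at 500 nM for 24 h from the apical side. No gene was called for basal against apical agonist: 61 genes (0.498%) had an unadjusted p under 0.05, and the smallest limma adjusted p was 0.99985. With the replicate block the smallest adjusted p was 0.968. It was 0.887 without replicate 2, which was left out because the Xist level of the apical library did not match its number. The difference between sides, basal minus apical, was -0.11 ± 0.16 for S1pr4 and 0.29 ± 0.12 for Slc26a11, while Rffl gave -0.05 ± 0.10. For Hoga1 it was -0.73 ± 0.30. Slc26a11, Rffl and Hoga1 were chosen for their small p against vehicle, and the same basal libraries enter the difference between sides. Its size for these genes is therefore not independent of that choice. Basal and apical agonist share their vehicle libraries, so their values against vehicle are given side by side only: 0.28 and 0.00 for Slc26a11, -0.30 and -0.26 for Rffl, -0.97 and -0.23 for Hoga1, and 1.19 and 0.53 for Gm45221. By list, 33 of 34 interferon genes and 22 of 24 cholesterol genes had a lower mean with basal than with apical agonist, with medians of -0.13 and -0.08, while 50.3% of all genes had a higher and 49.7% a lower mean. Other lists leaned the same way. A lower mean with basal agonist was found for 32 of 34 genes of oxidative phosphorylation, 36 of 43 ribosomal protein genes, 23 of 26 targets of MRTF and SRF, 21 of 26 endothelial markers, 19 of 22 genes of hypoxia and glycolysis and 18 of 21 BMP and TGF-beta genes. Cell cycle genes leaned the other way, with 7 of 30 lower. The density trend was not removed from these counts, and it differed between the sides. Against vehicle, the densest 10% had a median of 0.04 with basal and 0.09 with apical agonist, and the sparsest 10% of -0.06 and -0.13. The part of read density in the counts by list was not tested. Against vehicle, the ribosomal protein median was 0.10 with basal and 0.15 with apical agonist. No member of these lists was called.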

How the data were processed

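RNA was sequenced from 24 libraries, and the 8 compared here are described above. The deposited wild-type table holds a normalized expression signal: gene counts divided by a factor per library and rounded by the authors to whole numbers, as its values show. Per the submitters' processing notes, FastQC, Trimmomatic 0.38, STAR 2.7.3a, featureCounts 1.6.5 of Subread, DESeq2 1.26.0 and the build mm10 were used. The notes give no role or order. Strand setting: not given in the sources used here, as is the treatment of duplicates. The knockout table was normalized separately and was not used here.

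Values were taken as log2(value + 1), with a pseudocount of 1. A gene was kept where its mean reached 10 across those 20 wild-type columns, and the kept genes were fitted with limma 3.58.1 in R 4.3.3 (group means, moderated variances with a mean trend, Benjamini-Hochberg adjustment over 12249 genes, called at an adjusted p under 0.05). Since rounding prevents exact recovery of reads, no count model was run and the fallback for raw counts was not needed. The estimated reads per library come from the steps between low values and cover neither duplicates nor mapping. The replicate numbers of the labels pair the libraries: the deviations of same-numbered libraries from their group means correlated at 0.748, 0.721, 0.757 and 0.773, above the limit of 0.1 set for the check, and each basal agonist library correlated best with the vehicle library of its own number. Vehicle libraries of another number reached at most 0.585, 0.598, 0.177 and 0.105 for basal agonist replicates 1 to 4, also above that limit. Passing the limit alone therefore does not show the pairing. Xist, read as a label check, was 1, 2251, 1063 and 190 in vehicle and 0, 2507, 1608 and 173 with basal agonist. The fit was tested on simulated data.

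Exonic lengths were taken from GENCODE M21 for 12243 of the 12249 genes. The density trend was a lowess curve (span 0.3) of each library's deviation on log2 counts per exonic base. Promoters came from RefSeq, build GRCm38.p6. Named genes were the S1P receptors, the 6 of smallest p per direction in each fit (in the blocked fit, with 4 pairs of one sign), and up to 3 of smallest p per list. Some of these genes are not reported here. Other members are named for their role, and those under the call without replicate 1 after their values were seen. The members and the 33 lists were chosen with earlier results of these data known, and lists are described without a test. Alternatives were other pseudocounts, filters, scalings, variance priors, sample sets, the replicate block and leaving out libraries. Cyclic loess scaling, removal of the density trend and the fits without libraries that went against their number by Xist were added after seeing the data.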

Additional observations from a re-analysis of the deposited data

Results flagged for a closer look

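Among 204 groups of 4 libraries examined (94 named genes and 8 summed marker lists, vehicle and basal agonist), 11 held a library far from the other 3 by Dixon's criterion, and chance flags about 1 in 20. In vehicle, Adgra2 was 2663 in replicate 4 against 2467 to 2496, Flt4 was 1402 in replicate 3 against 1562 to 1586, and Alcam was 220 in replicate 3 against 241 to 245. Igtp, an interferon-induced GTPase, was 258 in vehicle replicate 4 against 211 to 216, and Ahrr, the repressor of the aryl hydrocarbon receptor, was 143 in vehicle replicate 1 against 83 to 85.

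With basal agonist, Brwd3 was 123 in replicate 3 against 242 to 252, Timp3 was 1732 in replicate 4 against 1494 to 1522, and Mvd, of the cholesterol pathway, was 88 in replicate 4 against 121 to 122. The summed endothelial markers were 47143 in basal agonist replicate 4 against 42259 to 42474, the highest library of both groups. The summed oligodendrocyte and neuron markers were 290 in basal agonist replicate 3 against 135 to 160, and vehicle replicate 3 was also the highest of its group, at 311. The summed ependymal and choroid markers were 405 in basal agonist replicate 1 against 443 to 449.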

How the results depend on the processing

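No gene was called for basal agonist against vehicle under any alternative except the blocked fits without the pair of replicate 1, which called 50 genes, and 31 with the density trend removed as well. Leaving out 1 library at a time gave 0 calls, with 40 to 71 genes at an unadjusted p under 0.05 against 38, and the blocked fits that left out a pair gave 50, 0, 0 and 0 calls and 1250, 1127, 710 and 841 such genes without pairs 1 to 4. With the replicate block, where numbers pair the libraries, 1178 genes had such a p over 8 libraries and 121 over 20. The count was 135 with a mean of at least 1, 199 with no filter, 20 with a mean of at least 50, 64 with one prior variance, 998 with cyclic loess scaling and the replicate block, 871 with the density trend removed and the replicate block, and 1065 in that fit without replicate 1. The cause was not tested, except that another filter changes how many genes are tested. Basal against apical agonist gave 0 calls under each alternative run, leave-one-out fits included, with 0 as the lowest and highest.

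Of 2745 recomputed gene differences 26 changed sign. Quantile normalization gave -0.0015 for Ece1, and 0 for Fn1 and Hspg2. Removal of the density trend gave -0.020 for S1pr1, -0.0070 for Ece1, -0.010 for Mcam, -0.011 for B2m and -0.022 for H2-K1, the same values with the replicate block, and -0.023 for S1pr1 and -0.0059 for H2-K1 without replicate 1. With 1 library left out at a time, the differences that changed sign ranged from -0.028 to 0.13 for S1pr1, -0.23 to 0.057 for S1pr2, -1.48 to 0.16 for S1pr3, -0.18 to 0.037 for S1pr4, -1.32 to 0.26 for Prrx1, -0.00057 to 0.13 for Lrp5, -0.0015 to 0.10 for Adam15, -0.0061 to 0.080 for Timp3, -0.0046 to 0.11 for Mcam and -0.0049 to 0.078 for H2-K1. The opposite sign came without vehicle replicate 3 for S1pr2, S1pr4 and Lrp5, without basal agonist replicate 4 for S1pr3, Prrx1, Adam15, Timp3, Mcam and H2-K1, and without vehicle replicate 1 or 2 or basal agonist replicate 3 or 4 for S1pr1. These fits hold no block and leave unequal replicates in the groups, so a gene that differs between replicates can change sign for that reason. By pair, Prrx1 was lower and S1pr1 higher in all 4. A further 2703 of the 2745, with the 0 values of Fn1 and Hspg2 counted among them, kept their direction and side of the threshold, and 16 passed it, each in a blocked fit without replicate 1. Of 956 recomputed list medians 143 moved by more than the SD between pairs. The medians of 24 of the 33 lists took both signs under some alternative, among them cell cycle (-0.04 to 0.16), leukocyte adhesion (-0.05 to 0.10), interferon (-0.11 to 0.03), cholesterol (-0.10 to 0.02), oxidative phosphorylation (-0.01 to 0.09) and pericytes (-0.94 to 0.37). The other 9 did not, with ribosomal proteins between 0.05 and 0.14, endothelial markers between 0.01 and 0.10 and basement membrane between 0.00 and 0.09. The ends of the pericyte range came without vehicle replicate 4 and without basal agonist replicate 4, in the fit without the block. With 4 libraries a group the median standard error was 0.128, and values near 10 counts are also limited by counting.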
